A study of Homo sapiens with 20 samples.

Results

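NF2, YAP and TEAD pathway genes were examined in A375 and 1205Lu cells, which are established human melanoma cell lines. The 10 genes were NF2, LATS1, LATS2, YAP1, WWTR1, TEAD1, TEAD4, AMOTL2, AJUBA and ANKRD1, and each was found by its symbol among the 58870 genes of the RNA sequencing (RNA-seq) table. They were chosen with earlier results of these data known, so their counts beside shares of all genes are a description. Of the 54563 consensus peaks of the Cut&Run data, 65 overlapped the body of one of these genes or lay within 10 kb of it. RNA-seq covered 12 samples, 3 for each cell line with non-targeting siRNAs (si-NT) and 3 for each with siRNAs against FRA1 (si-FOSL1, named for the FOSL1 gene, which encodes FRA1). FRA1 is a member of the AP-1 family of transcription factors. Cut&Run, which releases DNA around an antibody bound in the nucleus, covered 8 samples of unsilenced cells, with 3 for FRA1 and 1 for control IgG in each line. Each group was 1 cell line, so its replicates share a clone history, and the labels do not say whether the 3 samples came from separate cultures. The p-values below therefore measure the spread between these samples, which may be technical.

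The Hippo pathway restrains growth by keeping the coactivators YAP and TAZ out of the nucleus. NF2 encodes Merlin, a membrane-linked tumor suppressor that promotes activation of the kinases LATS1 and LATS2, which phosphorylate YAP (YAP1) and TAZ (WWTR1). Free YAP and TAZ bind DNA through the TEAD factors, among them TEAD1 and TEAD4, and drive genes such as ANKRD1 and AMOTL2. AMOTL2 (an angiomotin) and AJUBA (a LIM protein that binds LATS kinases) also act on the pathway itself. TEAD and AP-1 factors often occupy the same enhancers.

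Totals were 20573412 to 32518903 estimated RNA-seq counts per sample. FOSL1 had 407.5 to 423.8 CPM (read counts scaled to the TMM-normalised library size) in the A375 si-NT samples and 25.7 to 26.0 with si-FOSL1, and 477.7 to 492.3 and 65.1 to 70.9 in 1205Lu, so its level followed the labels in all 12 samples. Of the melanocyte lineage markers, SOX10 averaged 913.7 CPM in 1205Lu si-NT samples and 43.96 in A375, and S100B averaged 427.3 and 0.992. MITF averaged 3.55 and 52.2 CPM. PMEL, MLANA, TYR, TYRP1 and DCT stayed under 1.42 CPM in every sample, so these pigment-cell markers were nearly absent from both lines. PTPRC, PECAM1 and EPCAM, which mark blood, endothelium and epithelium, reached at most 1.34 CPM, and the muscle marker DES reached 2.51 CPM, in A375 with si-FOSL1. Whether fewer cells or less RNA per cell underlay a change cannot be told apart in bulk samples.

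The first question was how much of each transcript the lines held without silencing. Per kilobase of merged exon, WWTR1 was the most abundant of the 10 in both lines, at a mean of 165.8 CPM per kb in 1205Lu and 46.0 in A375 (n = 3 each). In 1205Lu it was followed by TEAD1 at 41.6, NF2 at 30.8, YAP1 at 17.3, LATS1 at 12.7, TEAD4 at 12.3, LATS2 at 11.4, AMOTL2 at 7.29, AJUBA at 1.18 and ANKRD1 at 0.0373 CPM per kb. LATS1 and TEAD4 overlapped between samples, and the other neighbours in that order did not. In A375 the order after WWTR1 was AMOTL2 at 23.1, YAP1 at 22.8, TEAD1 at 21.9, TEAD4 at 18.5, LATS2 at 11.9, ANKRD1 at 11.1, AJUBA at 10.8, LATS1 at 9.01 and NF2 at 2.46 CPM per kb. There, the sample ranges of AMOTL2 and YAP1 overlapped, as did those of ANKRD1 with LATS2 and with AJUBA, whereas YAP1 and TEAD1 met at 22.3. NF2 was therefore among the 3 most abundant of the 10 genes in 1205Lu and the least abundant in A375.

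Between the lines, with si-NT alone, 4 of the 10 genes were lower in A375 and 5 were higher, where 40.4% and 42.4% of all protein-coding genes tested were lower and higher (edgeR quasi-likelihood test, adjusted p under 0.05). NF2 had 18.2 ± 0.429 CPM in A375 and 227.8 ± 1.75 in 1205Lu (SD, n = 3), a log2 fold change of A375 over 1205Lu of -3.72 ± 0.0369 (SE; edgeR adjusted p = 2.1e-24). By mean CPM, the level of NF2 in A375 was 7.97% of that in 1205Lu. WWTR1 (log2 fold change -1.92), TEAD1 (-1.002) and LATS1 (-0.57) were also lower in A375. AJUBA (3.13), AMOTL2 (1.596), TEAD4 (0.52) and YAP1 (0.33) were higher there. For ANKRD1, the counts were 397, 507 and 519 in the A375 samples and 2, 3 and 0 in the 1205Lu samples. ANKRD1 entered this comparison only through A375, and no fold is given because its fitted value depends on the prior count. LATS2 had 66.7 CPM in A375 and 64.1 in 1205Lu and missed the threshold (log2 fold change -0.02 ± 0.0378, edgeR adjusted p = 0.69), with a sign that turned to 0.12 at an adjusted p of 0.03 when no filter on low counts was applied.

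**Figure D1:**
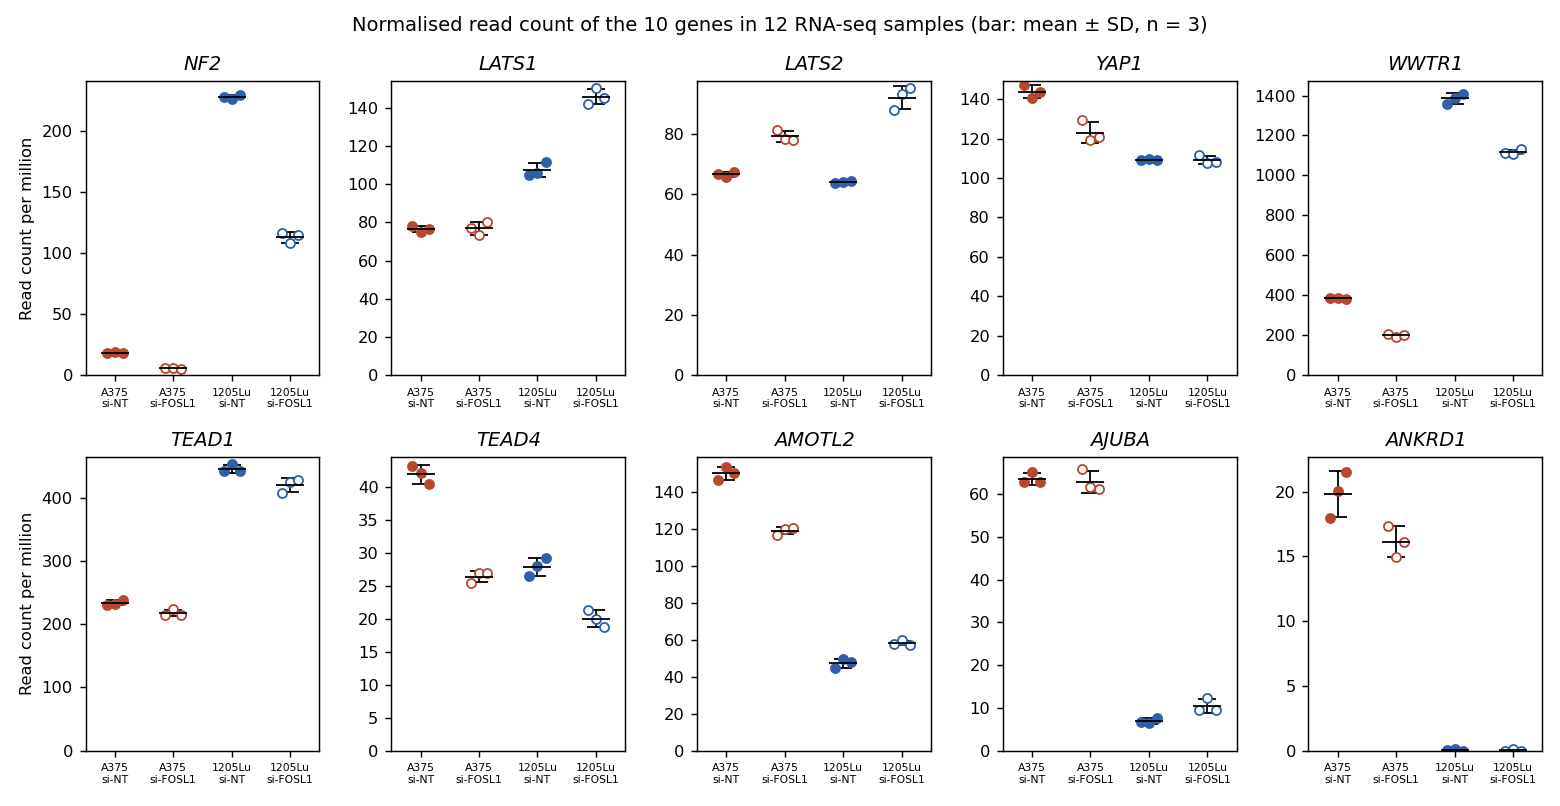
Normalised read count (CPM, linear axis from 0) of each of the 10 genes in the 12 RNA-seq samples; points are samples, filled for si-NT and open for si-FOSL1, and bars are the mean ± SD of 3. NF2 lies at 18.2 CPM in A375 and 227.8 in 1205Lu with si-NT and is lower with si-FOSL1 in both, whereas ANKRD1 is near 0 in 1205Lu.

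The main question was what silencing FRA1 did to these transcripts. In A375, 7 of the 10 genes fell and 1 rose, and 2 did not pass the test (edgeR quasi-likelihood test, adjusted p under 0.05). The background was high, since 27.8% of the 13598 protein-coding genes tested fell and 29.9% rose. As the 10 genes were chosen with earlier results of these data known, this comparison is no test of the set. In 1205Lu, 4 of the 9 genes tested fell, 4 rose and 1 did not pass, against 23.0% of 13728 protein-coding genes that fell and 24.0% that rose. The median log2 fold change of the tested genes was -0.26 in A375 and -0.02 in 1205Lu, and over all protein-coding genes tested it was 0.01 and -0.00093. The si-NT and si-FOSL1 samples did not overlap for 8 of 10 genes in A375 and 8 of 9 in 1205Lu, as was the case for 62.8% and 55.1% of all protein-coding genes tested. Only NF2 passed a 2-fold limit, in both lines, where 2.51% of protein-coding genes fell by this much in A375 and 1.86% in 1205Lu. NF2, WWTR1, TEAD1 and TEAD4 fell in both lines, LATS2 rose in both, and AMOTL2 fell in A375 and rose in 1205Lu. The share of all protein-coding genes with such a joint pattern is not given here, so these patterns are a description.

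NF2 (ENSG00000186575, chr22:29603556-29698598 on the plus strand, GRCh38) showed the largest fall of the 10 in each line. In A375 it had 18.0, 18.6 and 17.8 CPM with si-NT and 5.88, 5.34 and 4.49 with si-FOSL1. In 1205Lu the values were 227.5, 226.2 and 229.6 CPM with si-NT and 116.0, 107.7 and 115.0 with si-FOSL1. Every silenced sample lay below every control sample of its line. The log2 fold change was -1.79 ± 0.107 in A375 (SE; edgeR adjusted p = 8.9e-13) and -1.03 ± 0.0306 in 1205Lu (edgeR adjusted p = 9.4e-16), which left 28.9% and 49.6% of the control level. The A375 values rest on 111 to 471 counts per sample and those of 1205Lu on 2382 to 6840. On the log2 scale the fall was larger in A375 by 0.76 ± 0.0853 (test of the difference, edgeR adjusted p = 8.1e-08). Because the starting levels differed, the mean fell by 12.9 CPM in A375 and fell by 114.9 CPM in 1205Lu. The 3 genes whose log2 CPM followed NF2 most closely over the 12 samples were KCNMA1, SNX24 and SDC4, with Pearson's r of 0.999, 0.999 and 0.998 among 12663 genes. These samples form 4 groups, so the likeness mostly reflects group means and is given as a description.

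Of the coactivator transcripts, that of TAZ fell in both lines, and that of YAP passed the test in A375 but not in 1205Lu. WWTR1, which encodes TAZ (chr3:149517235-149736714), had 385.7, 384.4 and 381.3 CPM in A375 with si-NT and 203.6, 190.5 and 199.4 with si-FOSL1. In 1205Lu it had 1357, 1390 and 1409 CPM with si-NT and 1112, 1108 and 1130 with si-FOSL1. The groups did not overlap in either line. WWTR1 fell by 0.96 ± 0.0250 on the log2 scale in A375 (edgeR adjusted p = 1.6e-19) and by 0.33 ± 0.0151 in 1205Lu (edgeR adjusted p = 7.1e-13), a difference of 0.64 ± 0.0294 between the lines (edgeR adjusted p = 6e-15). YAP1 (chr11:102110447-102233424) had 140.7 to 147.2 CPM in A375 with si-NT and 119.2 to 129.2 with si-FOSL1. YAP1 fell by 0.23 ± 0.0331 on the log2 scale there (edgeR adjusted p = 3.1e-06). In 1205Lu its samples overlapped, at 108.9 to 109.4 CPM with si-NT and 107.7 to 111.4 with si-FOSL1, and it did not pass the test (log2 fold change -0.02 ± 0.0323, edgeR adjusted p = 0.71). The effects on YAP1 differed between the lines by 0.22 ± 0.0468 (edgeR adjusted p = 0.00053).

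Both TEAD transcripts fell in both lines, TEAD4 by more than TEAD1. TEAD4 (chr12:2959330-3040676) had 43.3, 42.3 and 40.5 CPM in A375 with si-NT and 25.5, 26.9 and 26.9 with si-FOSL1. In 1205Lu the values were 26.5, 28.0 and 29.3 CPM with si-NT and 21.3, 19.96 and 18.8 with si-FOSL1. No silenced sample reached the control range. The log2 fold change of TEAD4 was -0.67 ± 0.0547 in A375 (edgeR adjusted p = 2.5e-10) and -0.49 ± 0.0698 in 1205Lu (edgeR adjusted p = 7.8e-06). The difference between the lines, 0.19 ± 0.0877, missed the threshold (edgeR adjusted p = 0.1). TEAD1 (chr11:12674421-12944737) fell by 0.11 ± 0.0253 on the log2 scale in A375 (edgeR adjusted p = 0.00089) and by 0.10 ± 0.0197 in 1205Lu (edgeR adjusted p = 0.00029), which left 93.1% and 94.3% of the control level. Its effects differed by 0.02 ± 0.0341 (edgeR adjusted p = 0.73).

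Of the kinase transcripts, LATS2 rose in both lines, and LATS1 passed the test in 1205Lu but not in A375. LATS2 (chr13:20973036-21061586) rose from 65.9 to 67.4 CPM to 78.0 to 81.5 CPM in A375 and from 63.8 to 64.4 CPM to 87.9 to 95.5 CPM in 1205Lu. The log2 fold change was 0.25 ± 0.0384 in A375 (edgeR adjusted p = 8.1e-06) and 0.51 ± 0.0386 in 1205Lu (edgeR adjusted p = 1.4e-09), with a difference of 0.27 ± 0.0532 between the lines (edgeR adjusted p = 0.00023). LATS1 (chr6:149658153-149718105) rose in 1205Lu, from 104.9 to 112.0 CPM up to 142.4 to 150.4 CPM (log2 fold change 0.42 ± 0.0328, edgeR adjusted p = 1.8e-09). In A375 its samples overlapped, with 75.0 to 78.0 CPM under si-NT and 73.5 to 80.1 CPM under si-FOSL1 (edgeR adjusted p = 0.98). The effects on LATS1 differed by 0.43 ± 0.0525 (edgeR adjusted p = 3.1e-07).

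AMOTL2 (chr3:134355347-134375479) moved in opposite directions. In A375 it had 146.2, 153.2 and 150.2 CPM with si-NT and 116.6, 119.7 and 120.1 with si-FOSL1. In 1205Lu it had 44.6, 49.4 and 47.8 CPM with si-NT and 57.9, 59.6 and 57.2 with si-FOSL1. The groups were separate in each line, with the silenced samples lower in A375 and higher in 1205Lu. The log2 fold changes were -0.34 ± 0.0298 (edgeR adjusted p = 9.4e-10) and 0.29 ± 0.0475 (edgeR adjusted p = 5.1e-05), which differed by 0.64 ± 0.0535 (edgeR adjusted p = 5.4e-10). AJUBA (chr14:22971177-22982551) had 6.69, 6.45 and 7.61 CPM in 1205Lu with si-NT and 9.40, 12.4 and 9.61 with si-FOSL1. AJUBA thus rose in 1205Lu (log2 fold change 0.58 ± 0.134, edgeR adjusted p = 0.0014). The control samples there had 145 to 201 counts each and the silenced samples 193 to 278. In A375 its samples overlapped at 61.3 to 65.8 CPM (log2 fold change -0.02 ± 0.0433, edgeR adjusted p = 0.74), and the effects differed by 0.62 ± 0.116 (edgeR adjusted p = 0.00014). ANKRD1 (chr10:90912096-90921087), a widely used readout of YAP and TAZ, had 18.0, 20.1 and 21.5 CPM in A375 with si-NT and 17.3, 15.0 and 16.2 with si-FOSL1. Its groups lay next to each other without overlap, and the log2 fold change was -0.30 ± 0.0840 (edgeR adjusted p = 0.0046). When all 12 samples shared 1 estimate of the spread, the adjusted p of ANKRD1 was 0.055. In 1205Lu, ANKRD1 had 5 counts over the 3 si-NT samples and 2 over the 3 si-FOSL1 samples and was not tested.

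**Figure D2:**
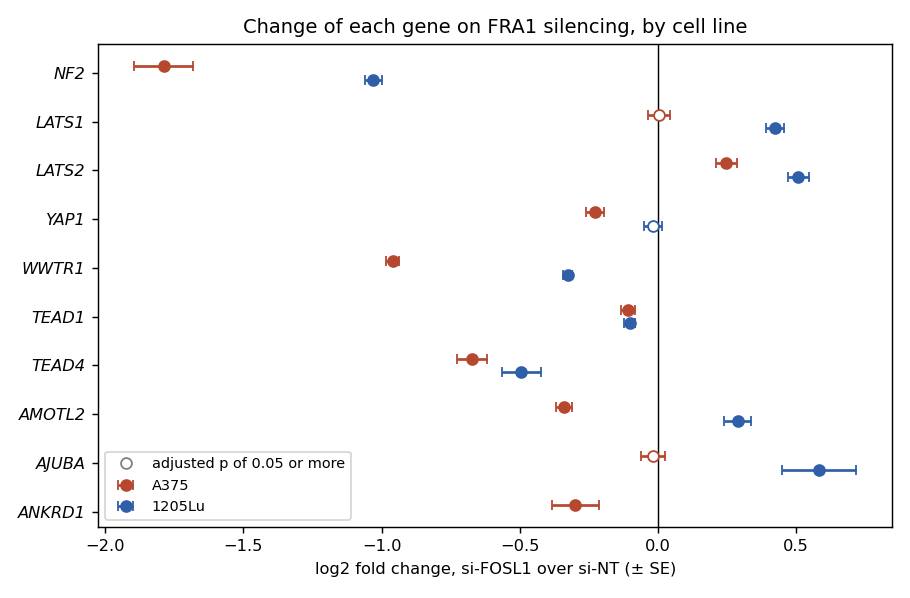
log2 fold change of si-FOSL1 over si-NT for each gene in A375 and 1205Lu (points; bars are ± SE; open points have an adjusted p of 0.05 or more). NF2 is farthest to the left in both lines at -1.79 and -1.03, and AMOTL2 has points on opposite sides of 0; ANKRD1 has no 1205Lu point because it was not tested there.

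The effect of silencing differed between the lines for 7 of the 10 genes, against 38.7% of the 14844 protein-coding genes tested for this difference. For all 7, namely NF2, LATS1, LATS2, YAP1, WWTR1, AMOTL2 and AJUBA, the log2 fold change in 1205Lu was the higher of the pair. Over the 14844 protein-coding genes, 2947 passed with the higher value in 1205Lu and 2804 with the lower. Several of the 10 genes share their locus with other transcripts. LATS2-AS1 and WWTR1-AS1 and unnamed long noncoding RNAs at LATS1, YAP1 and TEAD1 run antisense, and a protein-coding readthrough locus overlaps AJUBA on the same strand. The libraries were strand-specific, and the strand setting of the counting is not given in the sources used here, so reads of these pairs may be shared.

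Other genes of the pathway were read from a list of 28 regulators and partners. This list and that of the target genes below were also chosen with earlier results of these data known. In A375, 13 of the 27 tested fell and 8 rose, against 27.8% and 29.9% of all protein-coding genes tested. In 1205Lu 9 of the 26 tested fell and 9 rose, against 23.0% and 24.0%. The median log2 fold change was -0.19 in A375 and 0.06 in 1205Lu, where it was 0.01 and -0.00093 over all protein-coding genes tested. In A375 the largest called changes were in TEAD3, a further TEAD factor (log2 fold change -1.27 ± 0.0821), VGLL2, a TEAD cofactor (-1.20 ± 0.0716), WWC1, which encodes the LATS-activating scaffold KIBRA (-1.11 ± 0.0567), and FRMD6, a FERM-domain protein (1.00 ± 0.0260). TEAD3 went from 25.0 to 27.8 CPM down to 9.85 to 11.7 CPM. In 1205Lu its samples overlapped at 6.48 to 9.44 CPM, and it did not pass the test (edgeR adjusted p = 0.25). In 1205Lu the largest called changes were in FRMD6 (0.57 ± 0.0285), STRN3, a subunit of a phosphatase complex that acts on the Hippo kinases (-0.55 ± 0.0524), AMOT, the founding angiomotin (-0.45 ± 0.0450), and SAV1, the scaffold of the upstream kinases (0.43 ± 0.0544). SAV1 went from 95.3 to 100.6 CPM down to 59.0 to 63.3 CPM in A375 and from 30.6 to 32.7 CPM up to 41.2 to 45.2 CPM in 1205Lu. Thus SAV1 was the only gene of this list called in opposite directions in the 2 lines, and 6 were lower in both and 7 higher in both. No share over all protein-coding genes is given for these joint counts.

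Of 19 known target genes of YAP and TAZ, 12 fell and 5 rose in A375, against 27.8% and 29.9% of all protein-coding genes tested, and 4 fell and 7 rose in 1205Lu, against 23.0% and 24.0%. The fall of 4 of 19 in 1205Lu was thus near the background share. The median log2 fold changes were -0.27 and 0.18, beside 0.01 and -0.00093 over all protein-coding genes tested. Within this list, 3 genes fell in both lines (MYOF, AXL and F3), none rose in both, 5 fell in A375 and rose in 1205Lu, and 1 did the reverse. These joint counts, too, stand without a share over all protein-coding genes. CCN1, which encodes the matricellular protein CYR61, had 429.0 to 451.1 CPM in A375 with si-NT and 220.2 to 239.0 with si-FOSL1. In 1205Lu it had 53.7 to 58.3 CPM with si-NT and 96.9 to 102.3 with si-FOSL1. CCN1 therefore fell by 0.94 ± 0.0269 on the log2 scale in A375 and rose by 0.81 ± 0.0418 in 1205Lu. CCN2 (CTGF), the related protein, had log2 fold changes of -0.15 ± 0.0433 and 0.68 ± 0.0396. IGFBP3, an IGF-binding protein, had -1.18 ± 0.130 and 0.39 ± 0.0272, and NT5E (CD73) had 0.43 ± 0.0251 and -0.67 ± 0.0198. AXL, a receptor tyrosine kinase, went from 710.7 to 721.0 CPM down to 188.1 to 194.6 CPM in A375 and from 492.1 to 508.1 CPM down to 260.8 to 278.2 CPM in 1205Lu. F3 (tissue factor) fell by 1.65 ± 0.0915 on the log2 scale in A375 and by 0.99 ± 0.292 in 1205Lu. TGFB2, a TGF-beta ligand, rose from 9.73 to 12.7 CPM up to 42.7 to 48.2 CPM in A375 and had 1.70 to 2.58 CPM in all 1205Lu samples.

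**Figure D3:**
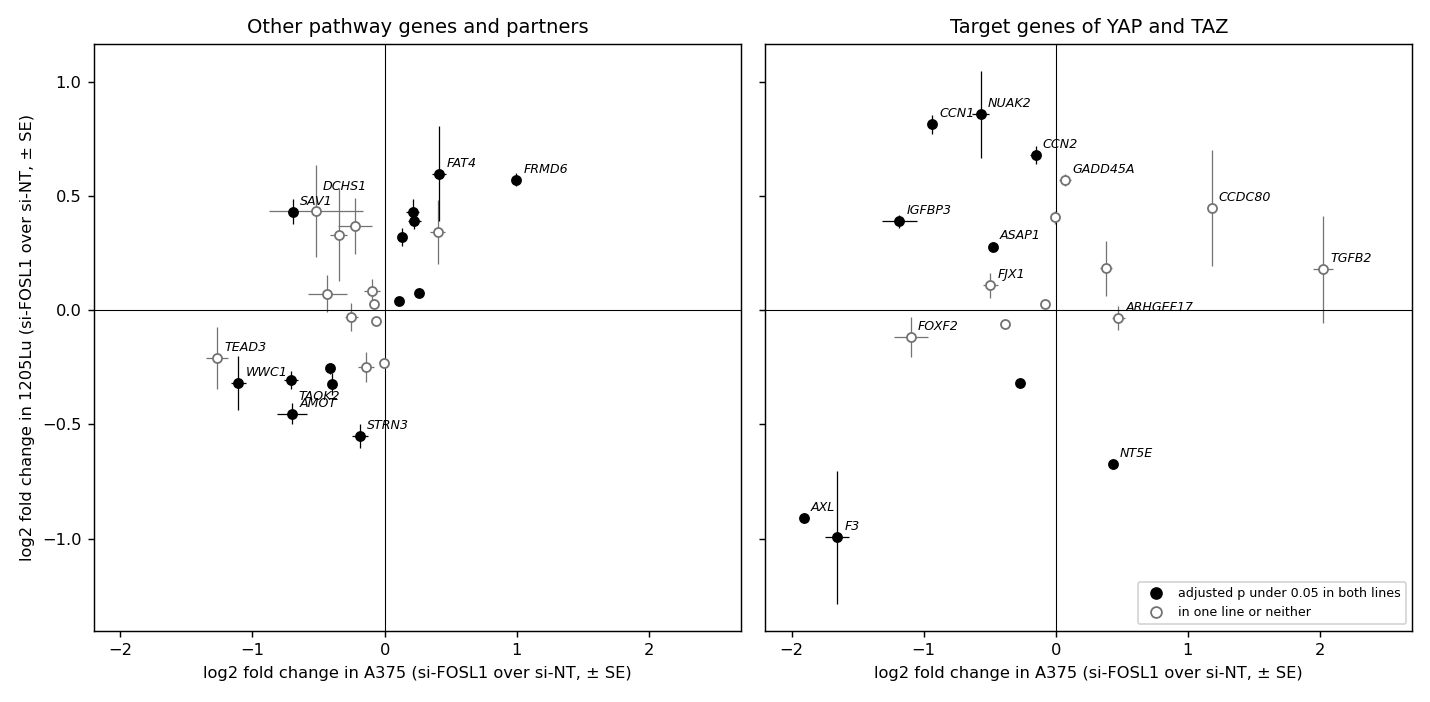
log2 fold change of si-FOSL1 over si-NT in A375 (x axis) and 1205Lu (y axis), with ± SE, for the other pathway genes (left) and the target genes (right) tested in both lines; filled points have an adjusted p under 0.05 in both lines. In the right panel CCN1, NUAK2, CCN2, IGFBP3 and ASAP1 lie at the upper left and NT5E at the lower right, and AXL and F3 lie at the lower left.

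The Cut&Run data address where FRA1 was bound near these genes. The A375 FRA1 samples held 3354095 to 5316527 counts in the consensus peaks and those of 1205Lu 583750 to 897407. The IgG samples held 383994 in A375 and 314569 in 1205Lu. The median count per peak was 30 to 47 for FRA1 and 6 for IgG in A375, but 5 to 6 for FRA1 and 5 for IgG in 1205Lu. Most consensus peaks were thus at the IgG level in 1205Lu. Comparing the counts of FRA1 replicates 2 and 3 of 1205Lu gave a chi-square of 1.06 per degree of freedom, close to sampling noise, where the other pairs of this line gave 1.62 and 1.90, so these replicates were summed and counted as 1 sample in the test between the lines. In A375, replicates 1 and 3 gave 1.09 and replicates 2 and 3 gave 1.13, also close to sampling noise, with a higher value for replicates 1 and 2, and the 3 were kept as separate samples. With all 6 FRA1 libraries as separate samples, 42 of the 59 tested peaks near the 10 genes were called. Over all peaks tested in that fit, 28517 of 45588 were called. The 65 peaks near the 10 genes had a median width of 871 bp. WWTR1 held 25, TEAD1 14, YAP1 7, NF2 5, AMOTL2 5, LATS2 4, TEAD4 2, ANKRD1 2 and AJUBA 1, and LATS1 had none. By place, 18 were within 3 kb of an annotated start of their gene (called promoter peaks here), 40 were in introns, 1 in an exon, 2 upstream and 4 downstream.

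Peaks are given as in the deposited table, on GRCh38, with short stretches of their sequence that hold the AP-1 sequence TGACTCA or the TEAD sequence GGAATG. Each was searched on both strands, so an AP-1 match can also read TGAGTCA and a TEAD match can also read CATTCC, and the sequences of the pair do not overlap each other. They are shown because they lie in the peaks discussed below, with the match in capitals, on the strand of the gene. A peak can hold further matches, and where it held both sequences only the AP-1 match nearest its centre is shown here. Matches can lie far from the centre, as does the last TEAD1 match shown, at -644 bp.
NF2 intron, chr22:29621839-29621866, TEAD: tctctttgcctGGAATGccattctcatt
LATS2 intron, chr13:21017267-21017295, AP-1: ttatgaaattgTGAGTCAtagtacaaaag
YAP1 promoter, chr11:102112143-102112171, AP-1: acactgcaggtTGACTCAtaggccaagtc
YAP1 intron, chr11:102138760-102138788, AP-1: agtaaattatcTGAGTCAtcaagttatgt
WWTR1 promoter, chr3:149576403-149576431, AP-1: gagaaaggaaaTGACTCAgtaacattgag
TEAD1 intron, chr11:12724518-12724546, AP-1: aggagtgctgaTGACTCAtcctctgaatg
TEAD1 intron, chr11:12813859-12813887, AP-1: ctcctacacctTGAGTCAccagccaaggt
TEAD4 promoter, chr12:2958659-2958687, AP-1: tgaatattcatTGAGTCActgagcccaga
AMOTL2 promoter, chr3:134374500-134374527, TEAD: tgaaactctcaCATTCCtggcatagcag
AJUBA promoter, chr14:22977821-22977848, TEAD: atcacgctccaGGAATGcctgccactgt
ANKRD1 promoter, chr10:90921291-90921318, TEAD: tcaccaccaaaGGAATGgccctctcaca
ANKRD1 upstream, chr10:90930941-90930968, TEAD: gacaaatcaaaCATTCCtttaatttttc
An AP-1 sequence was present in 37 of the 65 peaks (56.9%) and in 57.7% of all consensus peaks, and a TEAD sequence in 30 (46.2%) and 45.9%. Both were present in 13 of the 65 and in 27.7% of all peaks. No AP-1 sequence was found in the AJUBA peak or in either ANKRD1 peak, all of which held TEAD sequences. Of the 14 TEAD1 peaks, 10 held an AP-1 sequence, 9 a TEAD sequence and 6 both. The NF2 promoter peak held neither sequence.

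A peak was called enriched where no FRA1 sample of the line fell below 10 counts or below 4-fold of the IgG count after adding 1. No test was made, because each line had 1 IgG sample. In A375, 34 of the 65 peaks were enriched (52.3%, Wilson 95% interval 40.4 to 64.0), against 57.4% of all peaks. In 1205Lu, 8 were enriched (12.3%, interval 6.37 to 22.5), against 7.09% of all peaks. These intervals cover counting error over peaks only. All 8 were near NF2, WWTR1 or TEAD1, and 5 of the 65 peaks were enriched in both lines, against 4.496% of all peaks. The counts were not scaled for depth, and with each line's libraries scaled to the same total in peaks 1 of the 65 peaks (1.54%) passed in each line. Without replicate 1, the share enriched was 69.2% in A375 and 26.2% in 1205Lu. The shares of all peaks under these alternatives are not given here, so whether all peaks moved alike is not shown.

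At NF2, the enriched peak of both lines lay in an intron, 18.7 kb past the gene start (chr22:29621731-29622730). It had 97, 172 and 159 FRA1 counts in A375 with 2 for IgG, and 60, 124 and 104 in 1205Lu with 10 for IgG. The promoter peak (chr22:29603077-29603649) had 3, 2 and 2 counts in A375 with 0 for IgG, and 23, 37 and 32 in 1205Lu with 4 for IgG. NF2 promoter signal was thus above the 4-fold limit in 1205Lu alone, where the mean FRA1 count was 6.13 times the IgG count plus 1. That line had the higher NF2 transcript level, and a link to FRA1 signal was not tested. Relative to the normalised library, both peaks had less FRA1 in A375, with a log2 ratio of A375 over 1205Lu of -2.08 ± 0.201 in the intron (edgeR adjusted p = 3.7e-09) and -6.31 ± 0.376 at the promoter (edgeR adjusted p = 7.1e-13). Because the A375 libraries were larger, a peak with the higher raw count in A375 can have the lower normalised one. The test did not use IgG. Over the IgG count plus 1, the mean FRA1 count of the intron peak was 47.6 in A375 and 8.73 in 1205Lu, the opposite order. At the promoter the values were 2.33 and 6.13.

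WWTR1 held the most peaks of the 10 genes. Its strongest peak in A375, at an internal start 160.6 kb into the gene (chr3:149575249-149576895), had 557, 965 and 652 counts with 27 for IgG in A375, and 129, 260 and 250 with 15 for IgG in 1205Lu. Of its 25 peaks, 13 were enriched in A375, 3 in 1205Lu and 2 in both. TEAD1 had 8 of 14 peaks enriched in A375, 3 in 1205Lu and 2 in both. The TEAD1 peak with the most A375 counts, in an intron 49.9 kb into the gene (chr11:12723586-12725012), had 175, 326 and 273 counts with 6 for IgG in A375, and 54, 106 and 90 with 12 for IgG in 1205Lu. The only TEAD1 peak at an annotated start (chr11:12827767-12828524) had 3, 7 and 3 counts with 4 for IgG in A375 and 13, 19 and 25 with 5 for IgG in 1205Lu, below the limit in both. Chosen after their values were seen, a pair of peaks was enriched in 1205Lu only. A TEAD1 intron peak (chr11:12813733-12815301) had 88, 138 and 97 counts with 14 for IgG in 1205Lu and 7, 11 and 13 with 6 for IgG in A375. A WWTR1 promoter peak (chr3:149702930-149703825) had 68, 112 and 90 with 10 for IgG in 1205Lu and 9, 18 and 13 with 6 for IgG in A375. 

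ANKRD1 had enriched FRA1 peaks in A375 and counts near those of IgG in 1205Lu. Its promoter peak (chr10:90920828-90921989) had 212, 292 and 255 counts in A375 with 13 for IgG, and 8, 6 and 13 in 1205Lu with 8 for IgG. The log2 ratio of A375 over 1205Lu was 2.11 ± 0.267 (edgeR adjusted p = 3.1e-07). A second peak, centred at -9.93 kb from the gene start (chr10:90930255-90931781), had 149, 256 and 203 counts with 18 for IgG in A375 and 6, 3 and 11 with 9 for IgG in 1205Lu. The AJUBA promoter peak (chr14:22977296-22978465) showed the same pattern, with 67, 109 and 80 counts and 3 for IgG in A375, and 9, 4 and 2 counts and 14 for IgG in 1205Lu. Its log2 ratio was 1.36 ± 0.375 (edgeR adjusted p = 0.0036; DESeq2 adjusted p = 0.061). Transcripts of both genes were higher in A375 than in 1205Lu with si-NT, and a link to FRA1 signal was not tested. Of the pair, only ANKRD1 passed the test for a fall in A375 on silencing.

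At LATS2, the intron peak with the most A375 counts (chr13:21016873-21018001) had 224, 338 and 276 counts with 8 for IgG in A375 and 11, 16 and 24 with 7 for IgG in 1205Lu. Its log2 ratio was 1.35 ± 0.238 (edgeR adjusted p = 3.5e-05). The peak was picked by its A375 counts, which also enter this ratio, so the test is not independent of the choice. The other LATS2 peaks had log2 ratios of 0.08, -3.25 and -0.82. All 4 LATS2 peaks were enriched in A375 and none in 1205Lu. By normalised counts, 1 of the 4 was called with more FRA1 in A375 and 2 with more in 1205Lu. For YAP1, an intron peak (chr11:102138352-102139222) was picked in the same way. It had 173, 286 and 218 counts with 11 for IgG in A375 and 9, 23 and 19 with 3 for IgG in 1205Lu. The YAP1 promoter peak (chr11:102111632-102112637) had 55, 117 and 85 counts with 16 for IgG, and 9, 22 and 10 with 2 for IgG, and was enriched in neither line. The TEAD4 promoter peak (chr12:2958361-2959776) had 65, 100 and 82 counts with 16 for IgG in A375 and 20, 35 and 20 with 26 for IgG in 1205Lu, also below the limit in both. The AMOTL2 promoter peak (chr3:134373369-134375472) was enriched in A375, with 117, 179 and 141 counts and 24 for IgG, and had 22, 32 and 24 with 19 for IgG in 1205Lu. LATS1 had no consensus peak within 10 kb and 2 within 50 kb.

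**Figure D4:**
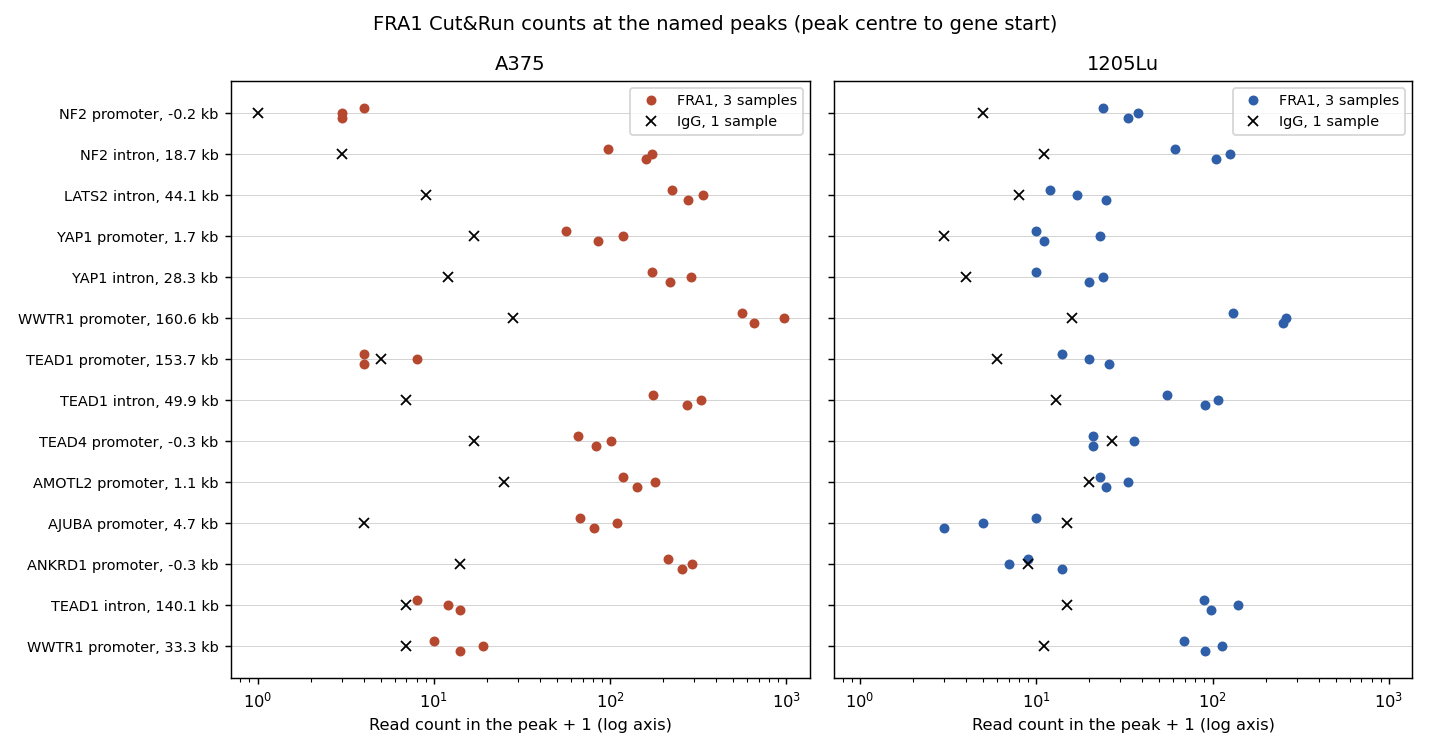
Read count plus 1 on a log axis at the named peaks in A375 (left) and 1205Lu (right); points are the 3 FRA1 samples and crosses the IgG sample, and each row gives the gene, the place and the distance of the peak centre from the gene start. The ANKRD1 and AJUBA points lie far right of IgG in A375 and around or left of it in 1205Lu, and the NF2 promoter points lie at 23 to 37 counts in 1205Lu and 2 to 3 in A375.

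Over the 65 peaks, 10 had more FRA1 in A375 and 34 more in 1205Lu (edgeR quasi-likelihood test, adjusted p under 0.05), against 29.0% and 24.3% of the 53300 peaks tested. With DESeq2 the counts were 7 and 33. Over all peaks, 54.4% of the calls were for A375 with edgeR, 60.6% with edgeR without TMM factors and 43.7% with DESeq2, which changes the test as well as the scaling. Of the 34 peaks with more in 1205Lu, 8 were enriched over IgG in that line and 14 were enriched in A375, so these calls refer to normalised counts and not to enrichment over IgG. By gene, 18 were near WWTR1, 9 near TEAD1 and 4 near NF2. Of the 10 with more in A375, 9 were enriched over IgG there, and they were near WWTR1 (3), YAP1 (3), ANKRD1 (2), LATS2 (1) and AJUBA (1).

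**Figure D5:**
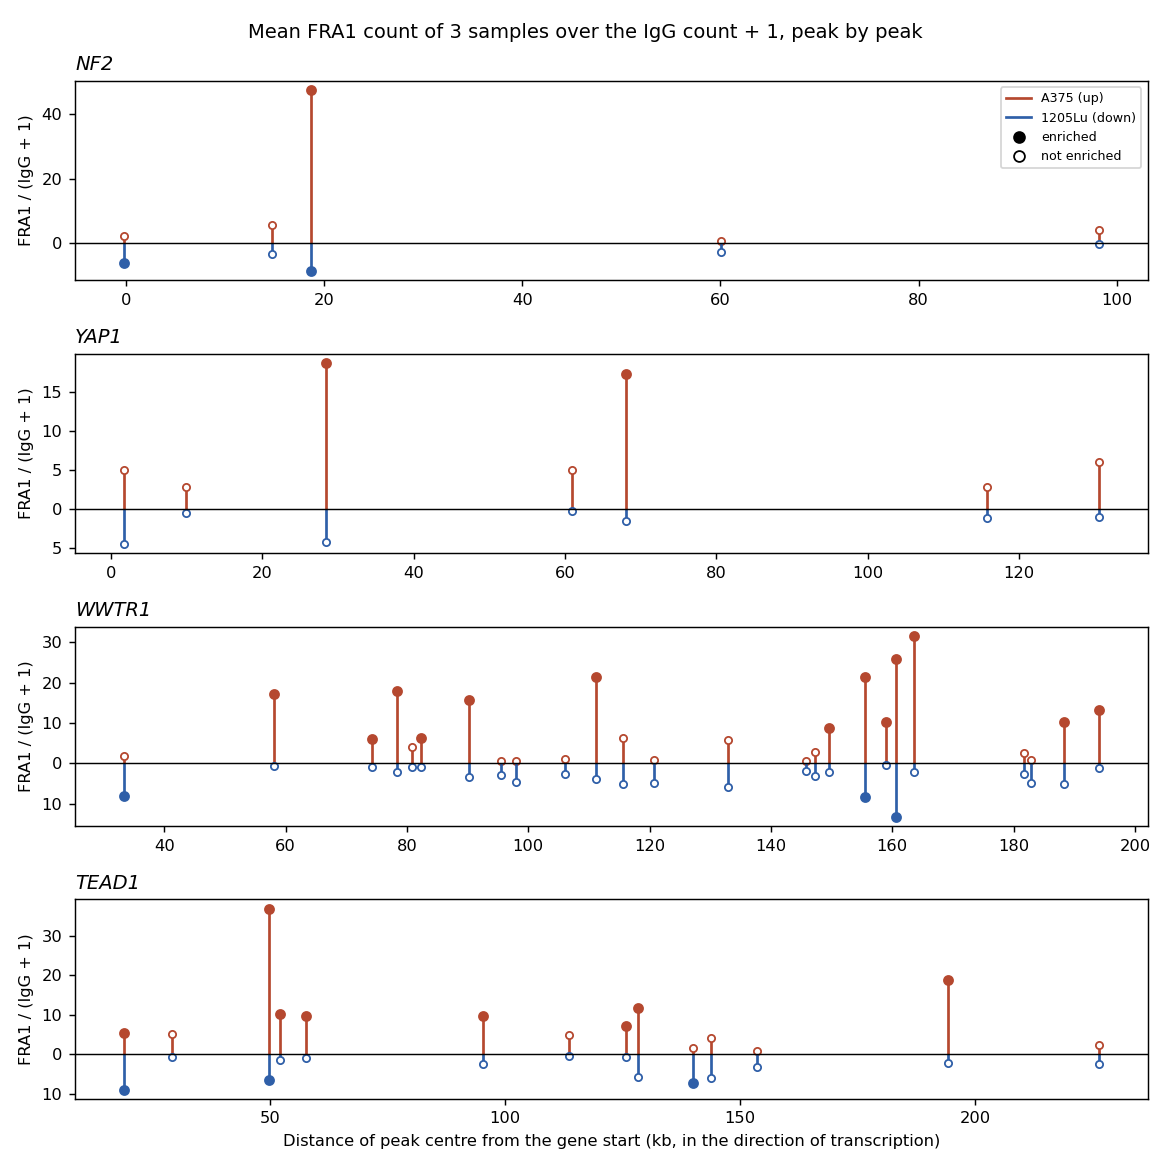
Mean FRA1 count of 3 samples divided by the IgG count plus 1 for each peak near NF2, YAP1, WWTR1 and TEAD1, plotted by the distance of the peak centre from the gene start in kb; A375 points up and 1205Lu down, and filled points meet the enrichment limit. Near NF2 the bar at 18.7 kb is filled in both lines and the one at the promoter in 1205Lu alone, and WWTR1 has 13 filled A375 bars and 3 filled 1205Lu bars.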

How the data were processed

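RNA was sequenced from 12 samples and FRA1 or IgG Cut&Run DNA from 8. Per the labels, the authors' processing notes name cutadapt 1.8.1, STAR 2.7.7a, RSEM 1.3.0, Bowtie2 2.4.1, MACS2 2.1.1.20160309, ChIPseeker 1.32.1 and DESeq2 1.36.0, with GRCh38. The deposited RNA-seq values are expected counts per gene, estimated by the authors with RSEM and whole in the file. The deposited Cut&Run values are read counts in consensus peaks pooled over samples. Peaks were matched to GENCODE 44 gene models, and 99.4% of the gene IDs were in that annotation.

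Genes were tested with edgeR 4.0.16 (filterByExpr, TMM factors, quasi-likelihood F-test, Benjamini-Hochberg adjustment over all genes tested, threshold 0.05), within each cell line, for the difference of effects over 12 samples, and between lines in 6 si-NT samples. SE is the log2 fold change divided by the square root of F. CPM used TMM factors over 12 samples, and CPM per kb the merged exon length. FRA1 counts were tested alike. Alternatives were DESeq2 1.42.0, other scaling, other filters, the replicate number as a block, and leaving out each sample. On simulated counts, the RNA-seq test recovered 76.5% of genes changed 1.25-fold and 98.5% of those changed 1.5-fold in A375, and 89.6% and 95.5% in 1205Lu. Of the unchanged genes, 8 were called in A375, with 16862 genes tested, and 14 in 1205Lu, with 17180. The simulation gave every gene the same spread and planted changes only in genes with ample counts. Real genes may therefore be recovered less often, and false calls may be more frequent.

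The 10 genes and the other lists were chosen with earlier results of these data known. All 10 genes are named. Of the other lists, the 4 called genes with the largest change and a mean of at least 100 counts are named in each line, and peaks by the most A375 counts, overall and among promoter peaks. MYOF, NUAK2, ASAP1 and the upstream ANKRD1 peak are named after their values were seen. Protein sequences were not used here. One sequence search of the transcripts is not reported here.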

Additional observations from a re-analysis of the deposited data

Results flagged for a closer look

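The effect of silencing differed between the lines, by the test of the difference in edgeR (log2 fold change in 1205Lu minus that in A375, adjusted p under 0.05), for 7 of the 10 genes: NF2 by 0.76, WWTR1 by 0.64, AMOTL2 by 0.64, AJUBA by 0.62, LATS1 by 0.43, LATS2 by 0.27 and YAP1 by 0.22. Of these, AMOTL2 was called in opposite directions in the lines. In the same test, 38.7% of all protein-coding genes passed, 2947 with the higher value in 1205Lu and 2804 with the lower.

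Among the named pathway partners the difference was 1.14 for SAV1, 1.07 for TEAD3, 0.81 for WWC1, 0.25 for AMOT, -0.35 for STRN3 and -0.42 for FRMD6. VGLL2 had a difference of 2.92, but its 1205Lu level was at most 0.19 CPM and that value depends on the prior count. Among the named target genes it was 1.77 for CCN1, 1.58 for IGFBP3, 1.01 for AXL, 0.84 for CCN2, 0.67 for F3, -1.09 for NT5E and -1.82 for TGFB2. SAV1, CCN1, CCN2, IGFBP3 and NT5E were called in opposite directions in the lines.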

How the results depend on the processing

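With a 2-fold limit added, 1 of the 10 genes was called in each line, and 0 for the difference between lines. No other alternative moved these counts by more than 1.5 times. Leaving out 1 sample in turn gave 8 calls in each line, 7 to 8 for the difference and 9 between lines. Signs turned only for changes that missed the threshold: in A375, LATS1 to -0.0010 (DESeq2) and -0.011 (protein-coding genes alone), with -0.027 to 0.034 when samples were left out, and AJUBA to 0.0067 (no filter); in 1205Lu, YAP1 to 0.0011 (no filter), with -0.030 to 3.522e-05 when samples were left out. For the difference, TEAD1 turned to -0.0075 (DESeq2), -0.029 (upper quartile) and -0.013 (protein-coding genes alone), and ANKRD1 ranged from -3.49 to 0.099 with samples left out, where 1205Lu replicates with 0 to 3 counts decide it. Between lines, LATS2 turned to 0.023 (upper quartile) and 0.116 (no filter, called at an adjusted p of 0.03), with -0.010 to 0.026 when samples were left out. The adjusted p of TEAD4 for the difference was 0.049 without si-FOSL1 replicate 3 of 1205Lu.

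Shares of enriched peaks moved most: in A375 to 75.4% at 2 times IgG, 29.2% at 8 times and 1.54% with scaled libraries, and 52.3% to 69.2% with 1 sample left out. In 1205Lu they were 33.8%, 1.54%, 1.54% and 12.3% to 26.2%, and 12.3% when replicates 2 and 3 were averaged, an alternative chosen after seeing the data. No shares of all peaks are given for these alternatives. Within 100 bp of peak centres, AP-1 sequences were in 27.7% and TEAD sequences in 18.5% of the 65 peaks (28.6% and 16.9% of all), and promoter peaks held TEAD sequences in 61.1%. Of 18 promoter peaks, 10 differed between lines, and over all peaks 28405 of 53300 did. Leaving out 1 sample gave 39 to 41 of the 62 to 65 peaks tested. Over all peaks, those fits called 24199 to 25970 of 49191 to 53344. The fit without 1205Lu replicate 1 left 1 summed sample in that line and is not counted here. Without A375 replicate 1, the WWTR1 peak at 160.6 kb (adjusted p = 0.13) and the YAP1 intron peak (0.057) were no longer called, nor was the WWTR1 peak without replicate 3 (0.064).

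Same-numbered samples did not deviate together (correlations of -0.027 to 0.0367 for RNA-seq and -0.0499 to 0.00335 for Cut&Run), so the numbers were not taken as pairs. With the replicate number as a block, 8 of the 10 genes were called in A375 and 8 of the 9 tested in 1205Lu. For the difference it was 7 of 10, and between lines 9 of 10. Of the 59 peaks tested with this block, 41 were called, and over all peaks 26744 of 45588. Depth limits FRA1 in 1205Lu, and 1 IgG sample per line limits every enrichment.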
